A study of Mus musculus with 32 samples.

Results

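In differentiating TX1072 cells 50 genes had a transient peak of mRNA: they were low at the start of the course, high at 8, 16 or 24 h, and low again at 48 h. They were chosen from the deposited mRNA levels, given as RPKM, which is a read number scaled by gene length and by library size. The highest of the 8, 16 and 24 h means had to be at least 5 RPKM and at least 2.5 times both the 0 h mean and the 48 h mean, with 0.5 added to each mean. Only autosomal genes were taken, and symbols starting with Slc, Zfp or Hist were left out, which removed 3 genes (Zfp423, Zfp459 and Slc29a1). This left 50 genes of the 15012 in the table, of which 14471 are autosomal and 6827 could have entered because they reached the level of 5 RPKM. Since the RPKM values of this course chose the genes, the peaks themselves are a description here and carry no test. Just inside the ratio of 2.5 were Phlda1 (2.54), Foxd3 (2.54) and Spry4 (2.56), and just outside it were Sssca1 (2.47), Col6a5 (2.42) and Rab27a (2.40).

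TX1072 is a female mouse embryonic stem (ES) cell line, an F1 hybrid in which each autosome pair has a copy from C57BL/6 (B6) and a copy from CAST/EiJ (Cast). It carries a doxycycline-responsive promoter before Xist on the B6 X chromosome and an rtTA transactivator at Rosa26, so all groups share these alleles, and every time point after 0 h also had 1 µg/ml doxycycline. The differentiating mRNA course has 10 libraries, 2 each at 0, 8, 16, 24 and 48 h. The undifferentiated courses are mRNA-seq in 12 libraries (2 each at 0, 2, 4, 8, 12 and 24 h) and PRO-seq, which maps engaged RNA polymerase by nuclear run-on, in 10 libraries (2 each at 0 and 24 h, 1 each at 0.5, 1, 2, 4, 8 and 12 h). The undifferentiated cells grew in serum medium with LIF and the inhibitor pair called 2i, which blocks Gsk3 and MEK. For the differentiating cells, neither the medium nor how long they had been in it at 0 h is given in the sources used here. TX1072 is 1 line, doxycycline and differentiation ran together in the differentiating course, and no label says whether the 2 libraries of a group are separate cultures. The p-values therefore speak of the spread among these libraries, part or all of which may be technical.

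The differentiating libraries differed in depth by up to 1.67 times and the undifferentiated ones by up to 1.52 times, as read from the steps of the RPKM values; the read numbers behind the mRNA levels are not known. For PRO-seq, reads that could be assigned to an allele numbered 3041199 to 6443286 per library. Of the ES cell markers, mean Pou5f1 was between 374 RPKM (48 h) and 667 RPKM (16 h) over the differentiating course. Nanog averaged 103.6 RPKM at 48 h and 636 RPKM at 0 h, and Klf4 3.29 RPKM at 48 h and 46.7 RPKM at 0 h. Xist, the induced gene, averaged 0.0704 RPKM at 0 h and at least 33.5 RPKM at each later time. In the undifferentiated course the first 2 h library stood apart, with RPKM values that summed to 362905, against 258659 in the lowest library.

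As background, naive ES cells held in LIF and 2i self-renew because autocrine FGF signalling through the kinases MEK and ERK is blocked and Wnt signalling is kept active. When this support ends, ERK signalling starts, naive genes decline and the cells pass through a formative state on the way to lineage choice. ERK switches on its own feedback genes, among them Sprouty proteins and the PEA3 group of ETS factors, while BMP signalling, through Id proteins, is known to oppose neural differentiation in ES cells.

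Of the 50 genes, 24 were highest at 8 h, 11 at 16 h and 15 at 24 h, the only peak times that the choice allowed. Peak means ranged between 5.04 RPKM (Itga1) and 168 RPKM (Trh), with a median of 13.2 RPKM. Libraries of a time point lay close together, with a median absolute log2 difference of 0.07 and a largest of 0.49 over 250 pairs of RPKM + 0.5 values. In all 50 genes both libraries of the peak time were above all 4 libraries of 0 and 48 h, which the way of choosing them makes likely. The peaks were broad. In 44 of the 50 genes the means at 8, 16 and 24 h were all above the means at both ends. Genes that peaked at 8 h still had a median of 50.3% of their peak RPKM at 24 h, and those that peaked at 24 h already had a median of 60.3% at 8 h. In bulk RNA, fewer cells with a transcript and less of it per cell cannot be told apart.

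**Figure D1:**
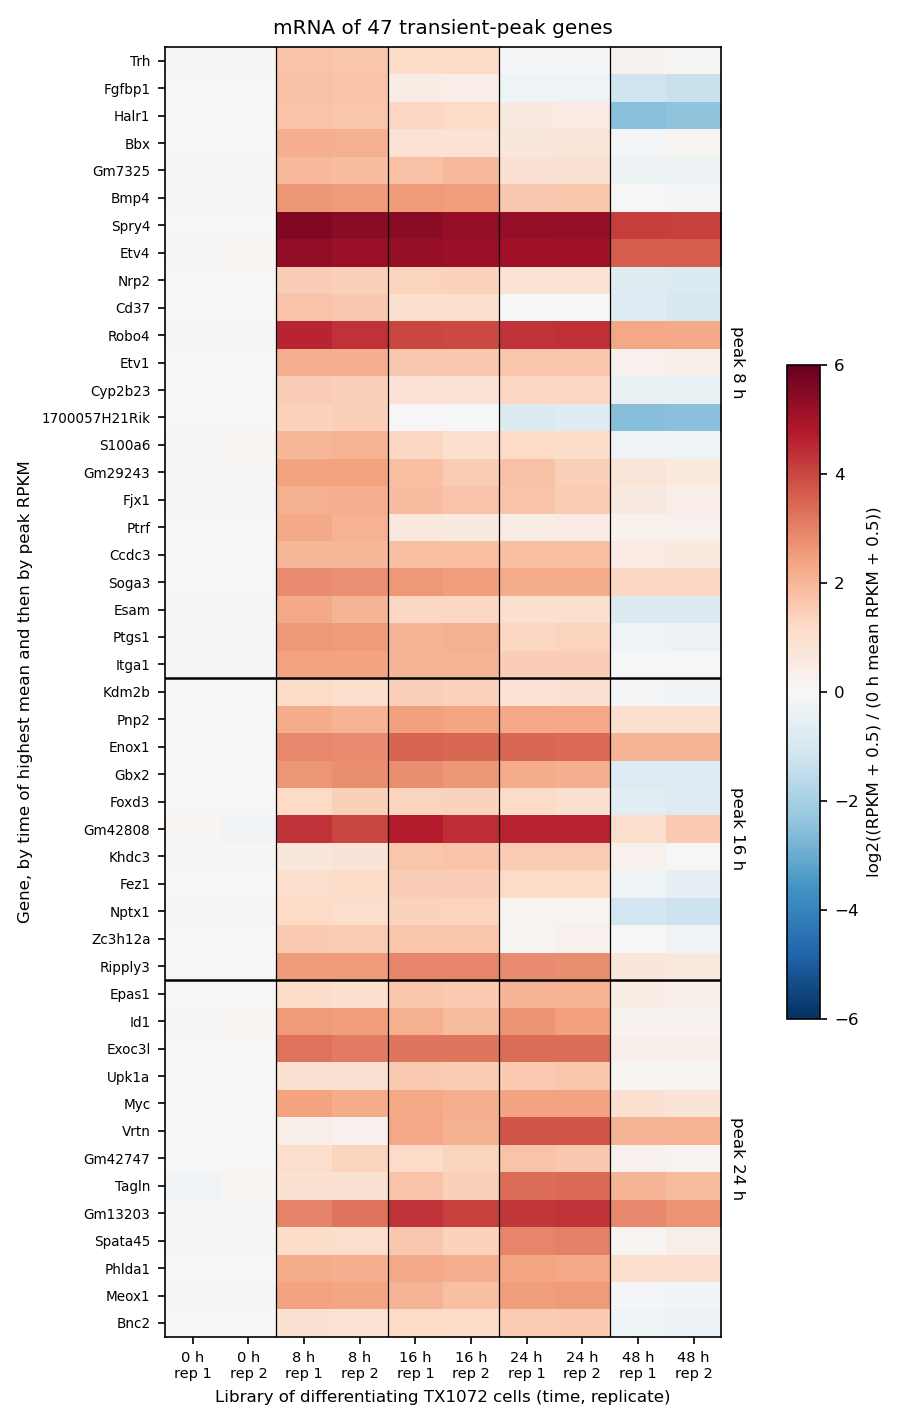
Rows are 47 of the 50 genes, grouped by the time of their highest mean (23 at 8 h, 11 at 16 h, 13 at 24 h) and ordered by peak RPKM; columns are the 10 libraries of differentiating cells. Colour is the log2 ratio of RPKM + 0.5 to the 0 h mean + 0.5. Both libraries of a time look alike, and the middle 6 columns are the reddest in nearly every row, while the 48 h columns are red in some genes (Spry4, Etv4) and blue in others (Halr1, 1700057H21Rik).

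Of the 50 genes, 44 code for proteins, and 48 matched a RefSeq symbol (Ptrf is Cavin1 there and Gm7325 is Mymx). By role, 13 act in transcription or on chromatin, 7 are secreted, 7 sit at the cell surface, 13 act inside the cell in signalling or structure, 4 are enzymes of small molecules, and 6 are non-coding or undescribed. Of the 7 surface genes, 6 peaked at 8 h, and of the 7 secreted ones, 5 did. Of the 13 transcription and chromatin genes, 3 peaked at 8 h, 4 at 16 h and 6 at 24 h. Only 2 pairs of members lie within 200000 bases of each other: Esam and Robo4 on chromosome 9, 112963 bases apart, and Etv4 and Meox1 on chromosome 11, 92139 bases apart. With 5 members a gene on the same strand overlaps (Itga1, Soga3, Khdc3, Pnp2 and Kdm2b), and with 12 one on the other strand; the library kit keeps the strand, but whether counting used it was not found in the labels, so levels of these genes are less certain.

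Of the 4 members on the ERK feedback list, Spry4 and Etv4 had the highest ratios of peak to 0 h of the 50, while Etv1 and Phlda1 were near the middle of the members. Spry4, a Sprouty protein that dampens receptor tyrosine kinase signalling, had 0.182 and 0.141 RPKM at 0 h, 30.4 and 27.8 at 8 h, 27.6 and 25.4 at 16 h, 25.2 and 25.2 at 24 h and 11.3 and 10.8 at 48 h. Etv4, an ETS factor of the PEA3 group, had 0.205 and 0.3196 RPKM at 0 h, 29.8 and 26.99 at 8 h, 27.6 and 26.3 at 16 h, 24.3 and 25.4 at 24 h and 8.86 and 8.82 at 48 h. Both were nearly silent at 0 h, were at their highest at the first time sampled after it, and at 48 h were still well above the start. The peak mean was 44.7 times the 0 h mean and 2.56 times the 48 h mean for Spry4, and 37.9 and 3.09 times for Etv4. Etv1, of the same ETS group, was less steep, with 2.55 and 2.68 RPKM at 0 h, 13.4 and 13.5 at 8 h, 9.08 and 9.06 at 16 h, 9.33 and 9.45 at 24 h and 3.197 and 3.47 at 48 h. Phlda1, a small intracellular protein that growth factors induce, had 1.11 and 1.06 RPKM at 0 h, 6.95 and 6.79 at 8 h, 7.25 and 6.67 at 16 h, 7.77 and 7.51 at 24 h and 2.75 and 2.67 at 48 h. Its level was flat across the 3 middle times. Fgfbp1, a secreted carrier that frees FGFs from the matrix, had 13.4 and 13.8 RPKM at 0 h, 46.5 and 45.6 at 8 h, 18.5 and 18.1 at 16 h, 11.3 and 11.4 at 24 h and 5.71 and 5.15 at 48 h. Unlike the 4 genes before it, Fgfbp1 was lower in both 48 h libraries than in both 0 h libraries.

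BMP genes were among the strongest peaks. Bmp4, a secreted BMP ligand (chr14:46383520-46390669 on mm10), had 4.71 and 5.07 RPKM at 0 h, 32.8 and 31.1 at 8 h, 31.1 and 30.3 at 16 h, 16.2 and 16.8 at 24 h and 4.83 and 4.55 at 48 h. Its peak mean was 6.02 times the 0 h mean and 6.25 times the 48 h mean, and its levels at 8 and 16 h were close together. Id1, which binds and blocks basic helix-loop-helix factors and is a standard BMP target, had 6.73 and 7.82 RPKM at 0 h, 45.6 and 43.6 at 8 h, 33.5 and 28.4 at 16 h, 50.4 and 42.9 at 24 h and 8.43 and 8.58 at 48 h. Id1 was the one with a dip, since both 16 h libraries were below all 8 and 24 h libraries, and its 24 h libraries were the farther apart. Bmp4 and Id1 ended near where they began: the 48 h mean was 0.963 times the 0 h mean for Bmp4 and 1.16 times for Id1 (RPKM + 0.5).

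Among the transcription factors of pluripotency, Gbx2, a homeobox factor that LIF signalling supports, had 3.87 and 3.71 RPKM at 0 h, 26.1 and 29.4 at 8 h, 29.2 and 26.6 at 16 h, 19.6 and 18.8 at 24 h and 2.02 and 1.98 at 48 h. Foxd3, a forkhead factor of the early epiblast, had 8.86 and 8.57 RPKM at 0 h, 20.7 and 24.4 at 8 h, 22.6 and 23.2 at 16 h, 20.02 and 17.7 at 24 h and 5.21 and 4.82 at 48 h. Both stood on a plateau at 8 and 16 h and ended lower than they began, with 48 h means of 0.582 times (Gbx2) and 0.599 times (Foxd3) the 0 h mean. Myc, a growth-promoting factor that ES cells need, had 6.23 and 6.11 RPKM at 0 h, 34.6 and 31.1 at 8 h, 32.3 and 29.8 at 16 h, 35.5 and 34.7 at 24 h and 12.00 and 10.9 at 48 h. It was flat from 8 to 24 h, and both 48 h libraries were above both 0 h libraries. Kdm2b, which binds CpG islands and brings a Polycomb complex there, had 20.2 and 19.2 RPKM at 0 h, 44.2 and 41.3 at 8 h, 53.1 and 51.99 at 16 h, 36.6 and 37.1 at 24 h and 18.4 and 17.4 at 48 h. It was the highest of the 16 h peaks at 52.6 RPKM.

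Other regulators differed in their timing. Epas1, the oxygen-regulated factor HIF-2α, had 18.99 and 17.8 RPKM at 0 h, 40.3 and 36.3 at 8 h, 58.7 and 55.7 at 16 h, 77.6 and 78.9 at 24 h and 25.1 and 23.2 at 48 h. Vrtn, known from pigs as a gene for vertebral number, was later still, with 1.13 and 1.11 RPKM at 0 h, 1.54 and 1.43 at 8 h, 7.47 and 6.65 at 16 h, 21.6 and 21.5 at 24 h and 6.21 and 6.45 at 48 h. At 8 h Vrtn had reached 6.88% of its peak, whereas Epas1 had reached 48.9%. Meox1, a homeobox factor of somites, had 0.8695 and 0.709 RPKM at 0 h, 6.42 and 6.05 at 8 h, 4.75 and 4.07 at 16 h, 6.84 and 7.11 at 24 h and 0.672 and 0.634 at 48 h. It was higher at 8 and 24 h than at 16 h, as Id1 was. Ripply3, a co-repressor of T-box factors, had 0.253 and 0.296 RPKM at 0 h, 4.01 and 4.11 at 8 h, 5.397 and 5.41 at 16 h, 5.102 and 4.796 at 24 h and 0.791 and 0.692 at 48 h. Bbx, an HMG-box protein, was the opposite of Vrtn in timing, with 8.75 and 8.26 RPKM at 0 h, 39.97 and 38.6 at 8 h, 16.1 and 15.9 at 16 h, 13.8 and 14.4 at 24 h and 8.06 and 9.18 at 48 h. Its 16 h mean was already below its 8 h mean of 39.3 RPKM and its level was back at the start by 48 h. Bnc2, a zinc finger protein, peaked lowest of this role at 5.32 RPKM.

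Promoters are shown next because the E-box described here was more frequent in them than in all promoters. RefSeq promoters (250 bases before to 50 after a start, GRCm38.p6) were matched for 28 of the 50 genes, 38 promoters in all. The E-box CACGTG, the palindrome that Myc with its partner Max and related factors bind, was in 7 of the 38 (18.4%), against 7.15% of all 32851 promoters in the table. The 7 were those of Bmp4, Gbx2, Foxd3, Cd37, S100a6, Fez1 and 1700057H21Rik. Of these, 4 are printed 5′ to 3′ on the gene's strand, with the matches in capitals: Bmp4 at chr14:46390620-46390919 (minus strand), Gbx2 at chr1:89931127-89931426 (minus), Foxd3 at chr4:99656049-99656348 (plus) and Cd37 at chr7:45238790-45239089 (minus).
Bmp4: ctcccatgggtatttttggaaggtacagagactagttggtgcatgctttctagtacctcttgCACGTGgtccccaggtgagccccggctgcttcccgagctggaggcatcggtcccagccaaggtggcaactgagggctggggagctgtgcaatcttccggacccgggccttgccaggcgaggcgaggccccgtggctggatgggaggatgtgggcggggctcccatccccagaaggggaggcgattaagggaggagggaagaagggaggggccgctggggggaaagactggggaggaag
Gbx2: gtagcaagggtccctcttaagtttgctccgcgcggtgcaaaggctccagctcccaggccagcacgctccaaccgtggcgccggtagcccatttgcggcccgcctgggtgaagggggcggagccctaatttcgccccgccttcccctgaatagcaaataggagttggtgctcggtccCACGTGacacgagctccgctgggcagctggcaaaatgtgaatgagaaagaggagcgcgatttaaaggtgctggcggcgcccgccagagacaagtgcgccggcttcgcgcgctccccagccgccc
Foxd3: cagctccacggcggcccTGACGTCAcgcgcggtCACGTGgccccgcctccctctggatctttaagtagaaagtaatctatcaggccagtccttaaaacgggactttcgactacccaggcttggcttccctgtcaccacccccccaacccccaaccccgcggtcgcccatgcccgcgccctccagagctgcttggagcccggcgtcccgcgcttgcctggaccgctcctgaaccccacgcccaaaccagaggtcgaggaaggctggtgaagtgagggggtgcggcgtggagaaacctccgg
Cd37: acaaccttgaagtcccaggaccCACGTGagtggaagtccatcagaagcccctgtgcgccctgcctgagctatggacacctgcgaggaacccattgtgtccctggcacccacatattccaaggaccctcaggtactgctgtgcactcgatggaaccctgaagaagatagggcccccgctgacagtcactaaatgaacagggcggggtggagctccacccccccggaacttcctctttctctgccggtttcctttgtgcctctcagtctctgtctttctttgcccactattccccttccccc
The E-box begins 188 bases before the start in Bmp4, 74 in Gbx2, 217 in Foxd3 and 228 in Cd37. In Foxd3 the first capitals are a CRE (TGACGTC on both strands, overlapping). Member promoters were somewhat richer in CpG, a median of 10.5 per promoter against 7 in all, and the E-box holds a CpG; the part of this in the E-box share was not tested. Of the other motifs, searched on both strands, AP-1 (TGANTCA) was in 1 of 38 promoters (2.63%, against 7.81% of all promoters). The CRE was in 2 (5.26%, against 3.21%) and TCF/LEF (CTTTGAT) in 3 (7.89%, against 3.73%). Both shares were thus also above those of all promoters, on few matches. The T-box (AGGTGTG) was in 2 (5.26%, against 5.84%) and the TATA box (TATAAA) in 3 (7.89%, against 13.6%). NF-Y (CCAAT) was in 15 (39.5%, against 37.4%) and the CArG box of SRF in 0 (against 1.63%). A match is a string of letters and not a bound site.

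**Figure D2:**
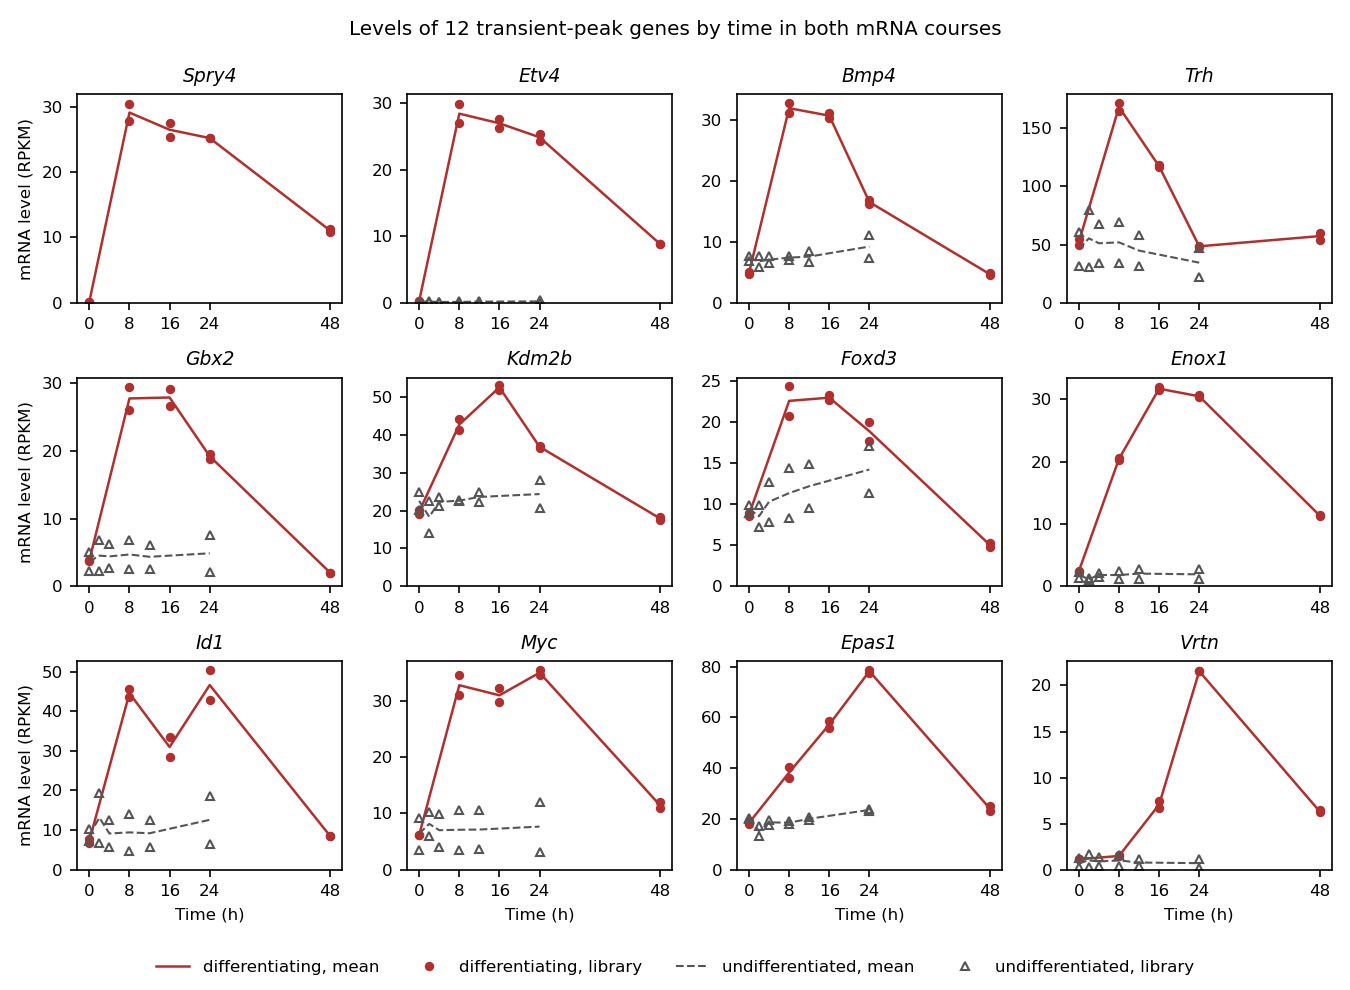
Each panel shows the mRNA level in RPKM against time in h for 1 gene, with circles for the libraries and a solid line for the mean of differentiating cells, and open triangles and a dashed line for undifferentiated cells (2 libraries a time). The differentiating lines stand high at 8, 16 or 24 h and come down at 48 h, whereas the undifferentiated lines stay low; Spry4 is not in the undifferentiated table, so its panel has 1 course.

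Among the secreted products the highest peak of all belonged to Trh, the precursor of thyrotropin-releasing hormone, which had 49.9 and 54.3 RPKM at 0 h, 171 and 165 at 8 h, 116 and 118 at 16 h, 48.8 and 48.04 at 24 h and 60.2 and 54.2 at 48 h. It was short: the 24 h mean of 48.4 RPKM was already below the 0 h mean of 52.1 RPKM. Fjx1, a secreted Golgi protein of the four-jointed family, peaked at 8.19 RPKM and Ccdc3, a secreted coiled-coil protein, at 6.71 RPKM, both at 8 h. Nptx1, a neuronal pentraxin, had 1.78 and 2.002 RPKM at 0 h, 5.06 and 4.495 at 8 h, 5.78 and 5.595 at 16 h, 2.22 and 2.22 at 24 h and 0.571 and 0.501 at 48 h. It ended below its start.

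Cell surface genes peaked mostly at 8 h, and several are known from endothelium or blood. Robo4, a roundabout receptor of endothelial cells, had 0.177 and 0.128 RPKM at 0 h, 14.9 and 12.8 at 8 h, 9.92 and 9.62 at 16 h, 12.6 and 13.2 at 24 h and 2.79 and 2.66 at 48 h. Esam, an adhesion protein of endothelial junctions, had 0.703 and 0.859 RPKM at 0 h, 5.77 and 4.72 at 8 h, 2.58 and 2.49 at 16 h, 1.97 and 2.03 at 24 h and 0.214 and 0.209 at 48 h. The neighbours thus differed at the end, since Robo4 stood above its start at 48 h (4.94 times) and Esam below it (0.556 times, RPKM + 0.5). Itga1, the integrin α1 chain, had 0.598 and 0.491 RPKM at 0 h, 5.05 and 5.03 at 8 h, 3.76 and 3.799 at 16 h, 2.38 and 2.38 at 24 h and 0.544 and 0.535 at 48 h. Its first and last levels overlapped. Nrp2, a co-receptor for semaphorins and VEGF, peaked at 15.2 RPKM, and Cd37, a tetraspanin of blood cells, at 13.9 RPKM, both at 8 h and both lower at 48 h than at 0 h. Gm7325 (Mymx), a small membrane protein that fuses myoblasts, had 9.42 and 10.1 RPKM at 0 h, 38.4 and 36.6 at 8 h, 34.5 and 38.5 at 16 h, 18.7 and 18.7 at 24 h and 7.87 and 7.77 at 48 h. Upk1a, a uroplakin of the urothelium, peaked at 24 h with 36.0 RPKM.

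Of the intracellular proteins, Exoc3l, a relative of an exocyst subunit, had the squarest course, with 3.58 and 3.53 RPKM at 0 h, 38.6 and 34.4 at 8 h, 37.3 and 36.5 at 16 h, 40.6 and 41.3 at 24 h and 4.46 and 4.53 at 48 h. It stood near its peak at all 3 middle times and at 48 h was at 1.23 times the 0 h level (RPKM + 0.5). Spata45, a spermatogenesis-associated protein of little known function, had 0.551 and 0.702 RPKM at 0 h, 1.93 and 1.85 at 8 h, 2.98 and 2.47 at 16 h, 8.02 and 8.78 at 24 h and 0.7802 and 0.931 at 48 h. Tagln, the actin-binding protein transgelin, had 0.4202 and 0.625 RPKM at 0 h, 1.45 and 1.42 at 8 h, 2.83 and 2.22 at 16 h, 9.91 and 10.5 at 24 h and 3.67 and 3.34 at 48 h. These 2 were late and narrow, with 22.5% (Spata45) and 14.1% (Tagln) of the peak reached at 8 h. Zc3h12a, an RNase that cuts inflammatory mRNAs, had 1.39 and 1.45 RPKM at 0 h, 5.29 and 5.11 at 8 h, 5.502 and 5.66 at 16 h, 1.68 and 1.83 at 24 h and 1.37 and 1.16 at 48 h. It was down again by 24 h. Khdc3, an oocyte and ES cell protein that guards the genome, had 3.45 and 3.92 RPKM at 0 h, 6.18 and 6.56 at 8 h, 12.6 and 13.02 at 16 h, 11.6 and 11.4 at 24 h and 4.56 and 3.57 at 48 h. Fez1, a transport adaptor of axons, peaked at 10.5 RPKM at 16 h. Ptrf (Cavin1), a coat protein of caveolae, was an 8 h spike, with a mean of 6.77 RPKM at 8 h and 1.88 RPKM at 16 h. S100a6, a calcium-binding protein, peaked at 10.3 RPKM and Soga3, a little-studied protein, at 5.31 RPKM, both at 8 h.

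The 4 enzymes peaked at 8 or 16 h. Ptgs1, the cyclooxygenase COX-1, had 0.455 and 0.391 RPKM at 0 h, 5.19 and 5.004 at 8 h, 3.25 and 3.54 at 16 h, 1.66 and 1.81 at 24 h and 0.298 and 0.227 at 48 h. Pnp2, a purine nucleoside phosphorylase, had 5.96 and 5.69 RPKM at 0 h, 28.7 and 25.7 at 8 h, 34.5 and 32.4 at 16 h, 31.1 and 30.6 at 24 h and 11.7 and 11.7 at 48 h. Pnp2 overlaps its near copy Pnp on the same strand, so reads may have been shared between them. Enox1, a surface NADH oxidase, had 2.35 and 2.46 RPKM at 0 h, 20.6 and 20.3 at 8 h, 31.9 and 31.5 at 16 h, 30.7 and 30.3 at 24 h and 11.3 and 11.5 at 48 h. It ended at 4.08 times its start (RPKM + 0.5). Cyp2b23, a cytochrome P450, had 4.38 and 4.63 RPKM at 0 h, 13.6 and 12.9 at 8 h, 8.69 and 8.402 at 16 h, 11.5 and 11.5 at 24 h and 3.19 and 3.22 at 48 h. Its level was lower at 16 h than at 8 or 24 h.

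The 6 non-coding or undescribed members differed in where they began. Gm42808, a lincRNA (chr5:140545486-140546392), had 0.218 and 0.0859 RPKM at 0 h, 12.8 and 10.02 at 8 h, 16.6 and 13.6 at 16 h, 15.03 and 15.00 at 24 h and 0.8597 and 1.404 at 48 h. Its smaller ratio, peak over 48 h, was 9.57, the largest smaller ratio of the 50. Halr1, a lincRNA beside the Hoxa cluster (chr6:52102949-52113684), had 12.3 and 12.9 RPKM at 0 h, 42.2 and 41.6 at 8 h, 30.8 and 29.8 at 16 h, 18.5 and 18.2 at 24 h and 1.82 and 1.97 at 48 h. Halr1 and 1700057H21Rik ended lowest of the 50 relative to their start, at 0.182 times (Halr1) and 0.172 times (1700057H21Rik) the 0 h mean (RPKM + 0.5). Gm13203 averaged 9.68 RPKM at 24 h and was listed at 0 and 0.0471 RPKM at 0 h. Gm29243 peaked at 8.32 RPKM at 8 h and Gm42747 at 11.6 RPKM at 24 h.

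Where the genes stood at 48 h relative to 0 h was not part of the choice as a contrast, although the values at both ends were. Both 48 h libraries were above both 0 h libraries in 27 of the 50 genes and below them in 18, and in 5 the libraries overlapped. Over all 15012 genes of the table, 49.8% were higher in both 48 h libraries and 40.2% lower, so neither count was far from the background. By peak time the ends were uneven, which was not tested. Of the 24 genes with a peak at 8 h, 10 were higher and 10 lower at 48 h, of the 11 with a peak at 16 h, 4 were higher and 6 lower, and of the 15 with a peak at 24 h, 13 were higher and 2 lower. The 2 lower ones were Meox1 and Bnc2. Ratios of the 48 h to the 0 h mean ran from 0.172 in 1700057H21Rik to 17.5 in Spry4.

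**Figure D3:**
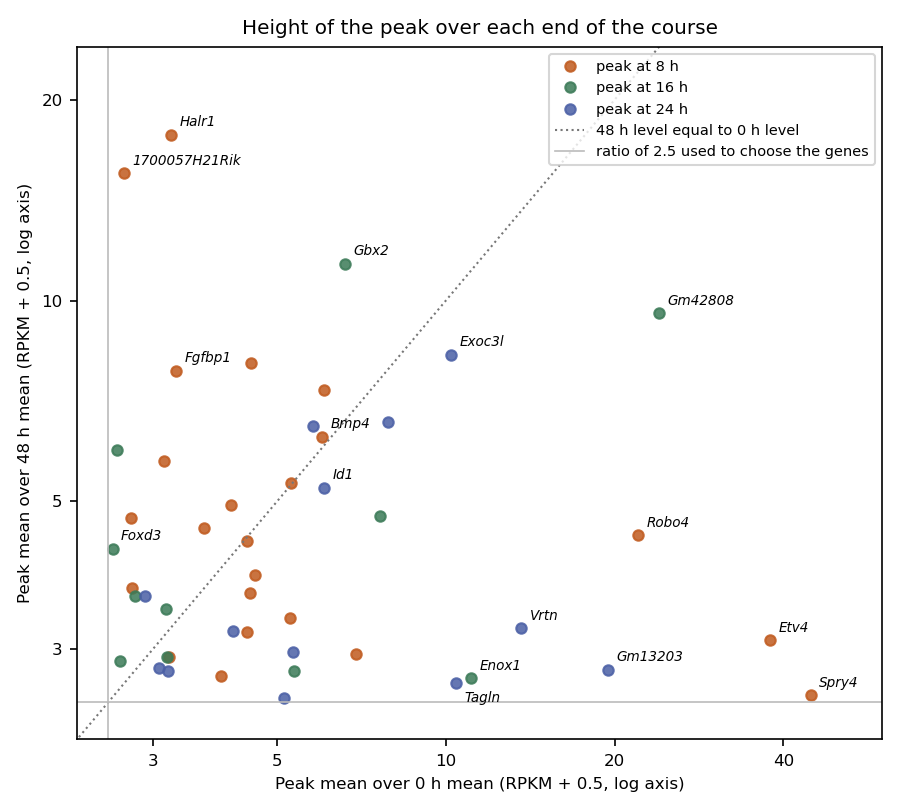
Each point is 1 of 47 of the 50 genes, with the ratio of the peak mean to the 0 h mean on the x axis and to the 48 h mean on the y axis (RPKM + 0.5, both axes logarithmic), coloured by peak time. Points under the dotted diagonal ended above their start (Spry4, Etv4, Robo4) and points over it below their start (Halr1, 1700057H21Rik, Gbx2); blue points of the 24 h peak lie mostly under it.

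The pathways around these genes were followed in other genes of lists written for these cells. The lists were chosen with earlier results of these data known, so counts over them are a description and not independent support. The tests used limma on log2(RPKM + 0.5), adjusted by Benjamini-Hochberg over 12220 genes. Over all these genes 23.4% were called higher and 32.4% lower at 8 h than at 0 h, 36.2% were called higher and 34.7% lower at 16 h than at 0 h, 35.8% were called higher and 38.8% lower at 24 h than at 0 h, and 44.0% were called higher and 35.0% lower at 48 h than at 24 h. Of the 50, 4 are on the list of ERK feedback genes. Of the 10 others tested, 7 rose and 2 fell at 8 h, with equal counts at 24 h, and 4 rose and 3 fell at 48 h against 24 h. Dusp6, an ERK phosphatase, had 1.25 and 1.21 RPKM at 0 h, 34.95 and 33.3 at 8 h, 36.3 and 32.97 at 16 h, 42.5 and 39.00 at 24 h and 52.97 and 53.3 at 48 h. Dusp4, another, had 0.605 and 0.518 RPKM at 0 h, 18.8 and 18.6 at 8 h, 17.8 and 15.7 at 16 h, 27.2 and 26.4 at 24 h and 34.02 and 32.6 at 48 h. Their log2 changes at 8 h against 0 h were 4.32 (Dusp6, adjusted p = 1.4e-13) and 4.18 (Dusp4, adjusted p = 2.9e-13). At 48 h against 24 h they were 0.38 (Dusp6, adjusted p = 3.3e-05) and 0.31 (Dusp4, adjusted p = 3.8e-04). Dusp6 and Dusp4 were thus high from 8 h on, as Spry4 and Etv4 were, and highest at 48 h, where Spry4 and Etv4 were lower than at 24 h. Spred1, an inhibitor of Ras signalling, changed by 1.23 at 8 h. The list was not uniform. At 16 h against 0 h, 7 of the 10 rose and 2 fell, Spry2 by -0.40 and Errfi1 by -0.25 on the log2 scale. Etv5, another ETS factor, was not called at that time (0.10, limma adjusted p = 0.061).

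Of the immediate early list, which Myc belongs to, 8 of the 16 others tested rose and 3 fell at 8 h, led by Cyr61, a matricellular protein (log2 change 1.92, SE 0.06, adjusted p = 1.1e-10), and Egr1, a zinc finger factor induced by ERK (1.10, SE 0.08, adjusted p = 2.1e-07). The Nodal, Activin and BMP list, with Id1 and Bmp4 as members, was split: of 15 others tested, 7 rose and 6 fell at 8 h, and 5 rose and 7 fell at 48 h against 24 h. Id3, a BMP target like Id1, averaged 8.22, 19.1, 9.64, 11.7 and 4.74 RPKM at 0, 8, 16, 24 and 48 h. Its change was 1.17, SE 0.06, adjusted p = 1.2e-08 at 8 h against 0 h and -1.22, SE 0.06, adjusted p = 3.8e-09 at 48 h against 24 h. Smad6, an inhibitor of BMP signalling, changed by 0.71 at 8 h and by -0.47 at 24 h against 0 h. Id4, another Id gene, went the other way from Id1, with a log2 change of -1.59 at 8 h and -2.01 at 24 h, and the inhibitor Smad7 changed by 0.32 at 8 h and -0.81 at 24 h. At 8 h the Nodal targets Lefty1 and Lefty2 fell by 1.98 (Lefty1) and 1.95 (Lefty2) on the log2 scale.

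The pluripotency lists moved in opposite directions. Of 14 naive genes other than Gbx2, 12 fell and 2 rose at 8 h, and 13 fell and 1 rose at 24 h. Tfcp2l1, a naive factor, fell by 1.84 on the log2 scale at 8 h and Tbx3, another, by 3.90 at 24 h. Gbx2, on the same list, was at 27.8 RPKM at 8 h, against 3.79 RPKM at 0 h, when most of its list was down. Of 14 formative and primed genes other than Foxd3 and Etv4, 10 rose and 4 fell at 8 h, 12 rose and 1 fell at 24 h, and 10 rose and 1 fell from 24 to 48 h. Fgf5, the ligand that marks the epiblast, averaged 0.126, 1.07, 4.203, 20.8 and 28.9 RPKM at 0, 8, 16, 24 and 48 h, and Otx2, a homeobox factor of the epiblast, 4.02, 25.2, 42.7, 50.2 and 69.9 RPKM at 0, 8, 16, 24 and 48 h. Both were highest at 48 h, where Foxd3 and Etv4 were down.

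Of 13 Wnt targets other than Bmp4, 10 fell and 2 rose at 8 h, led by Sp5 (log2 change -5.02, SE 0.07, adjusted p = 2.6e-13) and Cdx1 (-2.06, SE 0.08, adjusted p = 9.1e-10). Of 10 primitive streak and mesendoderm genes, which overlap that list, 6 fell and 4 rose, and the T-box factor Eomes rose by 2.23. Of 10 LIF and STAT3 genes, 7 fell and 3 rose, Socs3, a feedback inhibitor of STAT3, by -2.41. Of 18 actin and SRF genes other than Tagln, 14 rose and 1 fell at 24 h against 0 h, and 12 fell and 5 rose at 48 h against 24 h. Acta2, smooth muscle actin, averaged 0.111, 0.118, 0.3703, 2.297 and 0.914 RPKM at 0, 8, 16, 24 and 48 h, highest at 24 h like Tagln.

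Markers of other cell types were read beside this because Robo4, Esam, Cd37 and Tagln are known from other cells. None of the lists covers endothelium or blood, so no markers of those cells were read for Robo4, Esam and Cd37. Fibroblast or feeder markers, of which Tagln is one, had 9 of 14 genes in the table and summed to 160, 162, 171, 165 and 130 RPKM at 0, 8, 16, 24 and 48 h, most of it Fn1 and Vim. Of the 6 others tested at 24 h against 0 h, 3 rose (Thy1 by 2.50, Acta2 by 2.19 and Twist1 by 0.53 on the log2 scale) and 3 fell (Col1a1 by 0.91, Fn1 by 0.54 and Vim by 0.21). Col1a1, a defining fibroblast collagen, averaged 0.423 RPKM at 24 h and 1.23 RPKM at 0 h. Primitive endoderm markers summed to 137, 156, 147, 134 and 92.96 RPKM at these times, most of it Sparc. Whether other cells took part in the members' peaks was not tested.

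The undifferentiated courses had the same doxycycline without differentiation. The members were chosen for a high level in differentiating cells, so what follows about that level is a description. Of the 50, 46 are in the undifferentiated mRNA table, and in all 46 the highest of the 12 undifferentiated libraries was below the lower of the 2 differentiating libraries at the peak. The choice of genes makes such a gap likely, and the share over all genes was not worked out. The tables were normalized separately, and course and library batch cannot be told apart. Etv4 had 29.8 and 26.99 RPKM at 8 h in differentiating cells, against a lowest, median and highest of 0.0345, 0.121 and 0.371 RPKM in undifferentiated cells. Bmp4 had 32.8 and 31.1 RPKM at 8 h in differentiating cells, against 5.91, 7.52 and 11.04 RPKM in the same order in undifferentiated cells. Robo4, Vrtn and Tagln had undifferentiated maxima of 0.250 (Robo4), 1.66 (Vrtn) and 0.912 RPKM (Tagln). Taken as ratios, the narrowest gaps were in genes that undifferentiated cells already expressed. Nptx1 had 5.78 and 5.595 RPKM at 16 h, against 1.101, 2.98 and 4.78 RPKM. Gm7325 had 38.4 and 36.6 RPKM at 8 h, against 5.73, 10.2 and 27.9 RPKM. Its highest value was from the first 2 h library, which stood apart, and the next highest was 21.7 RPKM. Foxd3 had 22.6 and 23.2 RPKM at 16 h, against 7.18, 9.84 and 17.05 RPKM.

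**Figure D4:**
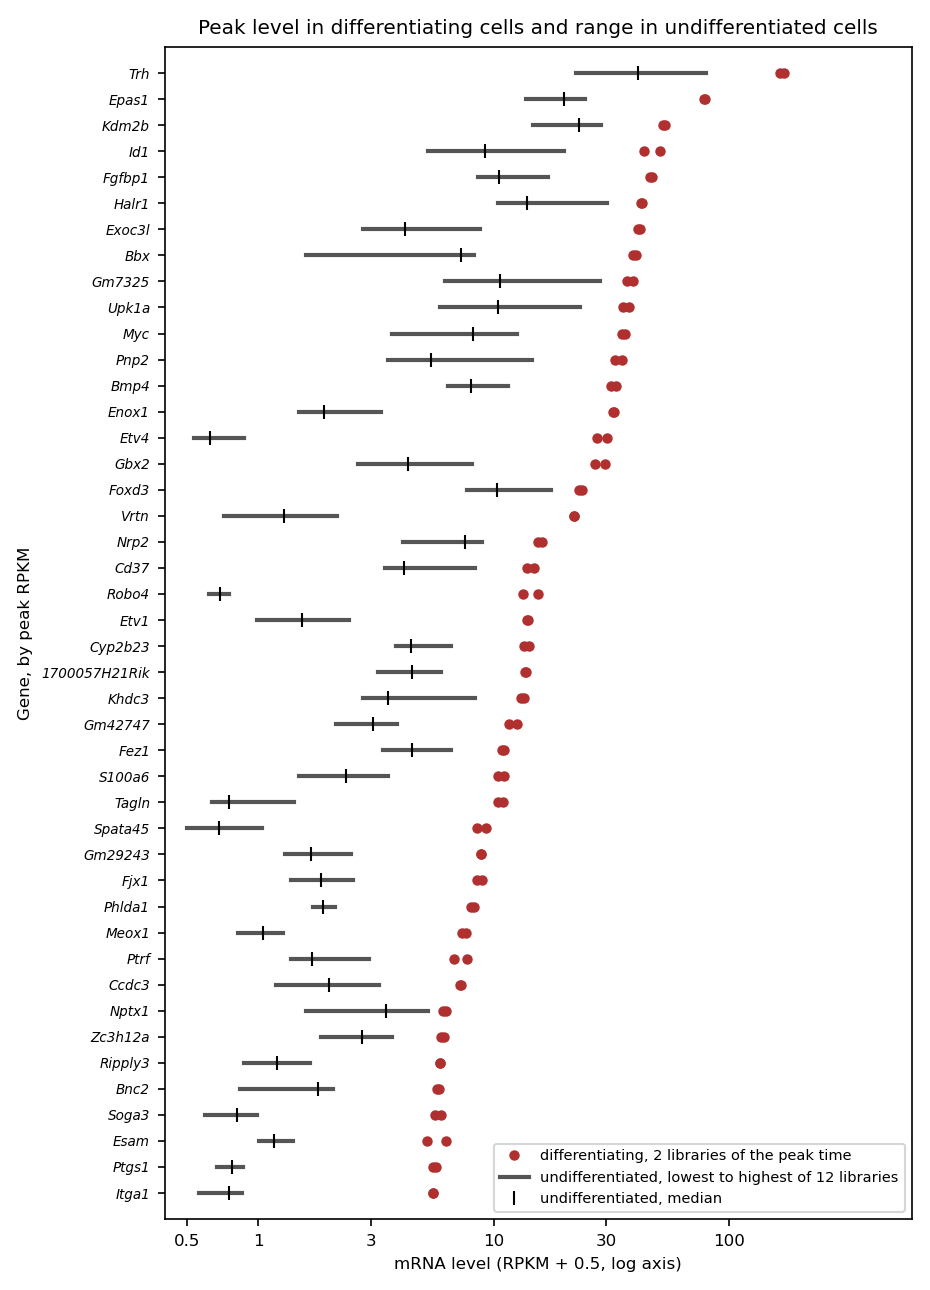
For each of 44 of the 46 genes, ordered by peak RPKM, circles are the 2 libraries of the peak time in differentiating cells, the bar spans the lowest to the highest of 12 undifferentiated libraries and the tick is their median (RPKM + 0.5, logarithmic axis). In every row the circles lie to the right of the bar. The bar ends closest to them in Nptx1, Foxd3 and Gm7325 and lies farthest from them in Etv4, Robo4 and Vrtn. In Gm7325 the end of the bar is the first 2 h library.

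Of the 46, 39 passed the filter of a mean of 0.5 RPKM over the undifferentiated course and were tested with limma. At 8 h against 0 h none was called, nor at 24 h against 0 h, and the background was as low: 0.00861% of 11612 genes at each time, which is Xist alone. At an unadjusted p under 0.05 there were 0 of the 39 at either time, against 2 genes of all at 8 h and 90 at 24 h. Both counts over all genes are far below a share of 0.05 of the 11612. The test was thus a strict one, and 0 members called says little about small changes. The members' log2 changes went from -0.30 to 0.31 at 8 h and from -0.44 to 0.54 at 24 h. The differentiating changes beside them are those the genes were chosen for and carry no test. For Bmp4 the log2 change at 8 h was 2.59 in differentiating cells, against 0.02 (95% interval -0.51 to 0.56) in undifferentiated cells, and for Gbx2 it was 2.72 in differentiating cells, against 0.27 (95% interval -1.52 to 2.07) in undifferentiated cells. For Myc it was 2.32 in differentiating cells, against 0.09 (95% interval -1.79 to 1.97) in undifferentiated cells. Of the 39, the undifferentiated interval lay below the differentiating change in 33 at 8 h and reached it in 6, such as Upk1a and Khdc3. At 24 h it lay below in 27 and reached it in 12, such as Trh and Foxd3. The genes were chosen for large changes in differentiating cells, so these counts were largely set by the choice. They were not made over all genes, and no conclusion is drawn from them. The intervals are wide, and libraries of a time point often lay far apart: Myc, for example, had a lowest and highest of 3.19 and 12.1 RPKM over the 12 libraries. With the replicate number as a block the estimates stay and the intervals narrow for these 3 genes, to -0.45 to 0.50 for Bmp4, -0.12 to 0.67 for Gbx2 and -0.45 to 0.63 for Myc at 8 h. That fit also called 0 of the 39 at either time. At an unadjusted p under 0.05 it had 1 member at 8 h (Ripply3, log2 change -0.30, 95% interval -0.52 to -0.08), against 52 of all genes, and 3 at 24 h, against 349. The 3 were Foxd3 (log2 change 0.54, 95% interval 0.17 to 0.92), Ptrf (log2 change 0.52, 95% interval 0.05 to 0.98) and Trh (log2 change -0.44, 95% interval -0.75 to -0.13).

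Nascent transcription in undifferentiated cells gave the same count. Of the 50 genes, 49 are in the PRO-seq table and 40 had enough reads; edgeR's quasi-likelihood test called 0 of the 40 at 24 h against 0 h, and 0.0119% of 16870 genes (Xist and Gm15226). DESeq2 also called 0 of the members, and 4 members had an unadjusted p under 0.05 in edgeR, against 1302 of all genes. The 4 were Epas1 (log2 change 0.38, SE 0.11, unadjusted p = 0.0043, adjusted p = 0.62), Fgfbp1 (-1.40, SE 0.54, unadjusted p = 0.025, adjusted p = 0.62), Etv1 (0.94, SE 0.37, unadjusted p = 0.028, adjusted p = 0.62) and Meox1 (-1.45, SE 0.63, unadjusted p = 0.040, adjusted p = 0.64). Without the second 0 h library edgeR called 1259 genes, 4 members among them: Epas1 at 0.42, Cyp2b23 at 0.88, Fgfbp1 at -1.99 and Halr1 at -0.79, so the count turns on 1 library. The PRO-seq level of members in undifferentiated cells varied widely. Phlda1 had 10.3 and 11.3 RPKM at 24 h, against 11.5 and 11.1 RPKM at 0 h by PRO-seq. Nptx1 had 17.7 and 15.5 RPKM at 24 h, against 13.6 and 14.4 RPKM at 0 h. Both were among the higher members. Etv4, in contrast, had 0.376 and 0.255 RPKM at 24 h, against 0.317 and 0.189 RPKM at 0 h. Enox1 had 0.334 and 0.0905 RPKM at 24 h, against 0.0703 and 0.2100 RPKM at 0 h. Levels of nascent RNA and mRNA are on separate RPKM scales and were not compared between assays.

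The share of reads from the B6 allele is a measure the choice of genes did not use. In these F1 cells both parental alleles of an autosomal gene are present, and a share away from 50% means that 1 allele gave more of the RNA. Of the 50, 36 had a share in every differentiating library and a mean of at least 1 RPKM and could be tested with limma on the log2 odds of the share (0.01 added); the other 14 lacked a share in at least 1 library. The share differed between 48 and 0 h in 21 of the 36 (58.3%), higher at 48 h in 9 and lower in 12, against a background of 22.9% of 10225 genes (10.5% higher and 12.4% lower). Among genes with a mean of at least 5 RPKM over the course it was 17 of 24 members, against 25.01% of 6829 genes. Members could pass either filter on the mean through their peak times. They are therefore not matched to the other genes in level at 0 and 48 h. The median absolute log2 odds change was 0.75 in the 36 members, against 0.19 in all genes tested. The reads behind each share are not known. The members were chosen to be low at 0 and 48 h, so shares at these times may rest on few reads. Itga1, 1 of the called members, averaged 0.545 RPKM at 0 h and 0.539 RPKM at 48 h. Whether low levels at these times play a part in the members' count was not tested.

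The largest share changes came with full separation of the libraries. Cyp2b23 had a B6 share of 46.3 and 52.6% at 48 h, against 88.9 and 88.1% at 0 h (log2 odds change -2.87, SE 0.14, adjusted p = 3.7e-05). Its share was already 38.7 and 41.9% at 8 h, so the allele balance had changed by the time of the peak. Foxd3 went the same way but later, with 89.6 and 89.9% at 0 h, 86.99 and 88.5% at 8 h, 86.1 and 86.4% at 16 h, 75.4 and 75.9% at 24 h and 66.2 and 54.4% at 48 h. Its log2 odds change was -2.41, SE 0.22, adjusted p = 4.4e-04, with the 48 h libraries on the B6 side of an even share but nearer to it than the 0 h libraries. Gm7325 had 16.6 and 15.5% at 48 h, against 50.00 and 47.7% at 0 h (-2.26, SE 0.09, adjusted p = 2.3e-05), and its shares at 8, 16 and 24 h lay between the ends in order. Fgfbp1 had 19.5 and 18.7% at 48 h, against 35.4 and 35.9% at 0 h (-1.19, SE 0.08, adjusted p = 1.5e-04) and Enox1 57.1 and 56.5% at 48 h, against 74.8 and 78.7% at 0 h (-1.30, SE 0.12, adjusted p = 5.9e-04). Gbx2 had 37.6 and 39.7% at 48 h, against 55.5 and 60.6% at 0 h (-1.11, SE 0.13, adjusted p = 0.0012), so it was below an even share at 48 h and above it at 0 h.

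In the other direction, Soga3 had 42.6 and 43.9% at 48 h, against 18.2 and 10.00% at 0 h (2.19, SE 0.29, adjusted p = 0.0022) and Itga1 31.4 and 34.8% at 48 h, against 8.77 and 13.8% at 0 h (1.91, SE 0.23, adjusted p = 0.0016). At 0 h Soga3 averaged only 0.339 RPKM and Itga1 0.545 RPKM. Both passed the filter of a mean of 1 RPKM through later times, and their 0 h shares may rest on few reads. In both the share at the 8 h peak, a mean of 70.0% in Soga3 and 45.7% in Itga1, was higher than at either end. Etv1 had 15.6 and 15.1% at 0 h, 19.8 and 24.4% at 8 h, 26.6 and 25.2% at 16 h, 30.5 and 30.2% at 24 h and 37.7 and 39.7% at 48 h, higher in both 48 h libraries than in all others, with a log2 odds change of 1.74, SE 0.13, adjusted p = 2.0e-04. Id1 had 19.5 and 18.4% at 0 h, 22.2 and 23.9% at 8 h, 24.8 and 21.6% at 16 h, 41.98 and 37.1% at 24 h and 40.1 and 40.7% at 48 h (1.49, SE 0.13, adjusted p = 3.8e-04), so its step came between 16 and 24 h. Bmp4 had 35.7 and 31.05% at 48 h, against 20.4 and 10.2% at 0 h (1.49, SE 0.33, adjusted p = 0.019); without either 48 h library it was no longer called. Of the 21 called genes the peak share lay between the ends in 13 and outside them in 8. Among members without a called change, Upk1a had 19.6 and 23.9% at 48 h, against 20.96 and 22.7% at 0 h.

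**Figure D5:**
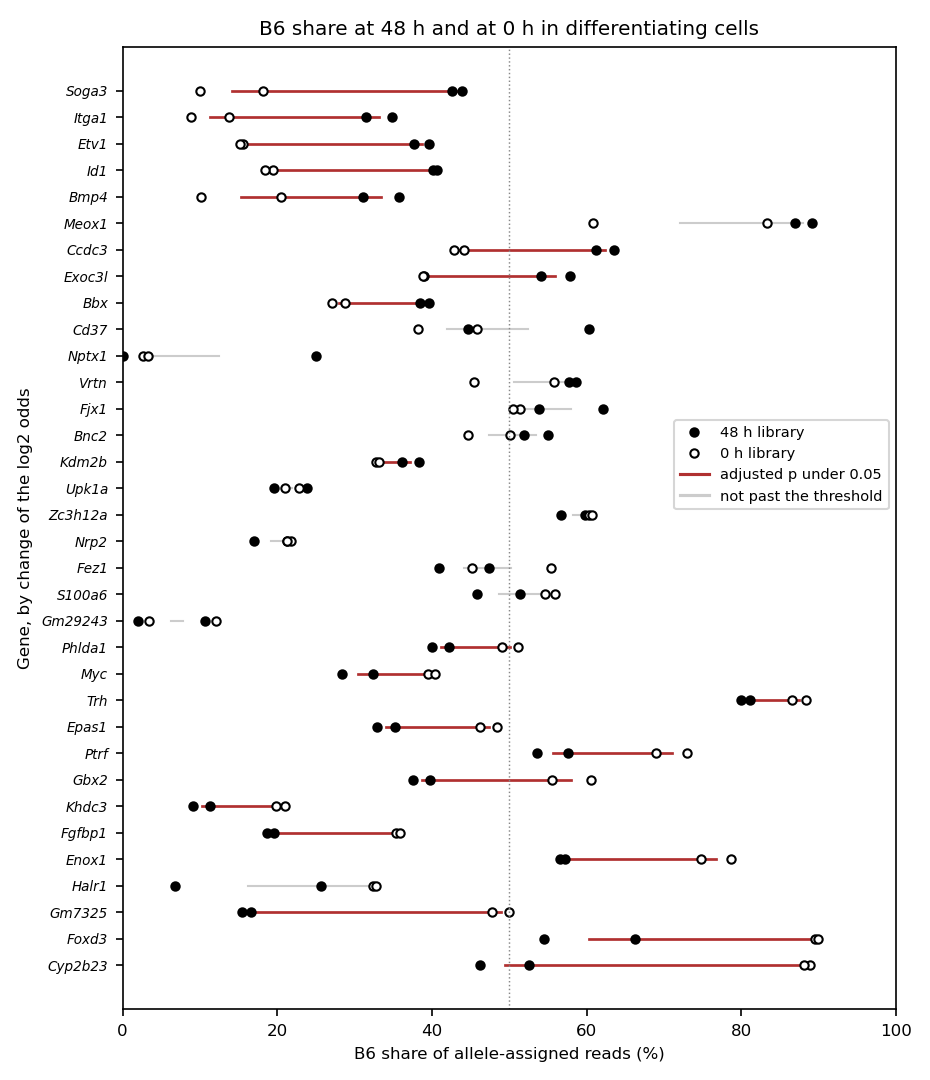
Each row is 1 of 34 of the 36 genes tested, ordered by the change of the log2 odds; filled circles are the B6 share in the 48 h libraries, open circles that in the 0 h libraries, in %, and the line joins the means (red where the adjusted p is under 0.05). Filled circles lie to the right in Soga3, Itga1, Etv1 and Id1 at the top and to the left in Cyp2b23, Foxd3 and Gm7325 at the bottom; pairs of circles are far apart in Nptx1, Halr1 and Cd37, which were not called.

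In undifferentiated mRNA, 31 members could be tested for the B6 share and limma called 0 at 24 h against 0 h, with 1 at an unadjusted p under 0.05 (Id1, log2 odds change -0.79, 95% interval -1.46 to -0.11). The background was 0.873% of 9854 genes (86 genes). The sign for Id1 was thus the reverse of that in differentiating cells, where the share rose, but the difference between the courses was not tested.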

How the data were processed

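Levels were read as deposited. Per the file headers, the authors' 2 mRNA tables hold RPKM and the fraction of reads from B6 per gene. The deposited PRO-seq table holds read counts per allele and RPKM. Per the submitters' processing notes, HTSeq 0.6.1, TopHat2 2.1.0, Bowtie 1.0.0, cutadapt 1.8.2 and SAMtools were used with mm10, in roles not named there. For mRNA, limma 3.58.1 with trend and robust settings took log2(RPKM + 0.5), where the course averaged 0.5 RPKM or more. The added 0.5 understates the change of low genes. The B6 share was tested as log2 odds (0.01 added), where the course averaged 1 RPKM or more and every library had a share. PRO-seq counts, summed over alleles, were tested with edgeR 4.0.16 (quasi-likelihood, TMM, filterByExpr), and with DESeq2 1.42.0 as an alternative. Each fit held all libraries of its course, with time as a factor. Tests were two-sided, adjusted by Benjamini-Hochberg over all genes at 0.05, and tried on simulated data. The members and the 24 gene lists were chosen with earlier results of these data known. Values per library are given for 6 members of each peak time with the largest smaller ratio and 3 with the highest peak. They are also given for the 10 largest called changes in other measures and for all members on a list. Of each list, only some of the other genes are named. Values of 3 members are not reported here, in the text or the figures, though counts over the members include them. Replicate numbers of the RNA libraries follow deposit order, not a label, so the main fits have no block. Promoters and gene positions come from RefSeq (GRCm38.p6) and GENCODE.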

Additional observations from a re-analysis of the deposited data

How the results depend on the processing

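The number of members follows the way they are chosen: 77 with a lowest peak of 2 RPKM, 32 with 10 RPKM, 91 with a ratio of at least 2 and 28 with a ratio of at least 3. Leaving out 1 library at a time gave 47 to 51. The undifferentiated mRNA tests called 0 members under all alternatives run, including the one without the first 2 h library, which was chosen after seeing the data. For PRO-seq, leaving out 1 library gave 0 to 4 members and 1 to 1259 genes. The 4 members and 1259 genes came without the second 0 h library. No filter gave 207 genes. The B6 share at 48 h against 0 h was called in 19 to 23 members with 1 library left out and in 1528 to 1675 genes. Of the 21 called, Kdm2b, Phlda1, Trh and Bmp4 were lost without 1 or more of the libraries. For the undifferentiated share, 1 library left out gave 0% to 1.68% of genes called (0% without either 0 h library, 0.0913% without the first 24 h library and 1.68% without the second), with 0 members each time. The cause of these shifts was not tested.

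A fit with the replicate number as a block, for numbers that mark only the order of deposit in RNA, called 20 members for the B6 share at 48 h (Kdm2b was lost), 0 for the other tests of members and 1.46% of genes for the undifferentiated share, against 0.873% without it. Same-numbered libraries deviated together in the undifferentiated course (median correlation 0.84), a hint from the data and not from the design, and not in the differentiating course (0.010) or PRO-seq (0.094). Depth limits the low genes: 7 of the 46 members in the undifferentiated table had a mean under 0.5 RPKM and were not tested.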

Other observations

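Some gene groups with no member took other courses in the differentiating cells, but not all did. Of 12 DNA methylation genes, 8 were higher at 24 h than at 0 h and 9 were lower at 48 h than at 24 h. Of 20 cholesterol synthesis genes, 20 were lower at 8 h than at 0 h and 19 were higher at 48 h than at 24 h (limma). Their summed level was 667, 487, 445, 566 and 918 RPKM at 0, 8, 16, 24 and 48 h. Of 18 genes of the integrated stress response, 14 were lower at 8 h than at 0 h, 14 were higher at 16 h, 11 were lower at 24 h, and 13 were higher at 48 h than at 24 h. Their median log2 change was -0.50 at 8 h, 0.58 at 16 h and -0.31 at 24 h, each against 0 h. Of 15 interferon response genes, 12 were higher at 48 h than at 24 h, with a median log2 change of 1.44.

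In the undifferentiated course, libraries numbered 1 and 2 differed in the members. In 16 of the 39 members tested (41.0%), every library numbered 1 was above every library numbered 2. In 4 (10.3%) every one was below. Over 11612 genes these shares were 16.9% and 21.1%. Without the first 2 h library the counts of members were 20 and 5, and the shares of all genes 21.9% and 24.0%. Trh had a median of 64.4 RPKM in the libraries numbered 1 and 31.3 RPKM in those numbered 2, Myc 10.4 and 3.61 RPKM, and Gbx2 6.52 and 2.36 RPKM. The numbers follow deposit order, so what sets these libraries apart was not tested.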
